A study of Arabidopsis thaliana with 10 samples.

Results

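Cold in a natural Arabidopsis accession was followed by comparing the 2 arrays of C24 seedlings kept cold for 24 h with the 2 arrays of C24 seedlings left at room temperature. These 4 arrays are all that the labels assign to either group, of 10 arrays in the series. Each array carried 22810 probe sets of Arabidopsis thaliana, of which 64 manufacturer controls were set aside and 22746 were tested. The other 6 arrays hold C24 after 3 h of cold and the reference accession Col, with 2 arrays from room temperature and 2 from 24 h of cold. They enter the shared estimate of spread and give the side comparisons. Both groups of the main comparison are unmodified C24 plants grown on diluted MS plates at 23 and 18 °C, and cold means 4 °C. The sample labels describe leaf tissue of plants aged 20 days, whereas the series text gives seedlings of 14 days. No source used here gives the hour at which plants were taken. The series text states 2 biological replicates a group.

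A plant moved to the cold builds dehydrins and other late embryogenesis abundant (LEA) proteins that protect membranes and enzymes, and it accumulates sugars because sink tissues slow more than photosynthesis does. Sugar and excess light are known inducers of flavonoids and anthocyanins, red and ultraviolet-absorbing pigments that screen the leaf. Autophagy and the breakdown of branched-chain amino acids, by contrast, are known as routes that release carbon and energy when sugar runs short.

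Signals are on the log2 scale of RMA, which corrects for background, equalises the arrays and combines the probes of each probe set, so a change of 1 is 2-fold. A level below about 4.5, the lower quartile of every array, is called the background range here and is not shown to be above background. Where both arrays of a group lie there, a fold is given as "at least", with those arrays set to their lower quartile. A gene is named where its probe set belongs to exactly 1 gene (13513 probe sets). Gene lists are described by their measured members, those with such a probe set, which were 144 of the 787 genes listed. Changes are given with the standard error (SE) of the fit and with limma's p-values adjusted by Benjamini-Hochberg over all 22746 probe sets, and called at an adjusted p below 0.05. The number of arrays limits the precision, with a median SE of 0.0878.

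The leaf label was checked against marker genes. The Rubisco activase RCA read 14.06 and 14.06 at room temperature, and the photosystem proteins LHCB4.1 (14.04 and 13.99) and PSAN (13.55 and 13.51) were also far above the background range. Of the measured root markers only PYK10 was far above the background range. The root glucosidase PYK10 read 10.60 and 10.62 at room temperature and 11.60 and 11.58 after 24 h, and the root hair expansins EXPA7 and EXPA18 stood between 4.59 and 5.58 on the 4 arrays. The C24 room temperature arrays stood apart by 1 measure: 155 probe sets lay at least 2-fold above, and 243 at least 2-fold below, all 8 other arrays, against 116 to 279 in all for each other group. By the root mean square difference of group means over all probe sets they did not. C24 at room temperature was 0.567 from C24 at 3 h. The nearest group to Col at room temperature was 0.607 away, and the nearest to Col after 24 h was 0.604 away. The 2 C24 room temperature arrays resembled each other as closely as other replicates (r = 0.998). Control probe sets, whose signal at the 3′ end exceeds that at the 5′ end more as RNA degrades, did not move together. The GAPDH difference was 0.493 and 0.864 at C24 room temperature and 0.374 and 0.389 after 24 h, the actin difference 0.463 and 0.396 against 0.593 and 0.553, and the ubiquitin difference 1.16 and 1.16 against 1.12 and 1.15. The Col arrays differed from C24 in these controls, with actin differences of 2.07 and 2.33 and labelling spikes of 5.74 and 5.78 at Col room temperature against spikes of 6.94 and 7.08 in C24 after 24 h. Changes from room temperature in C24 are measured from the C24 room temperature arrays, so results are also given against the Col room temperature arrays, where ecotype, cold and the array controls above cannot be told apart.

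After 24 h of cold the transcriptome of C24 had moved widely. Of the 22746 probe sets, 5476 were called higher (24.1%) and 5778 lower (25.4%), with a median change of -0.02 over all of them. At least 2-fold rises numbered 1332 (5.86%) and at least 2-fold falls 1164 (5.12%). Only 273 rose and 236 fell at least 4-fold, and 58 rose and 55 fell at least 8-fold. Of the 2-fold rises, 63 started in the background range, and 36 of the 2-fold falls ended there. Against the room temperature arrays of Col, 31.2% of probe sets were called higher in cold C24 and 26.9% lower, and 1022 of the 1332 rises and 898 of the 1164 falls were also called in the same direction.

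**Figure D1:**
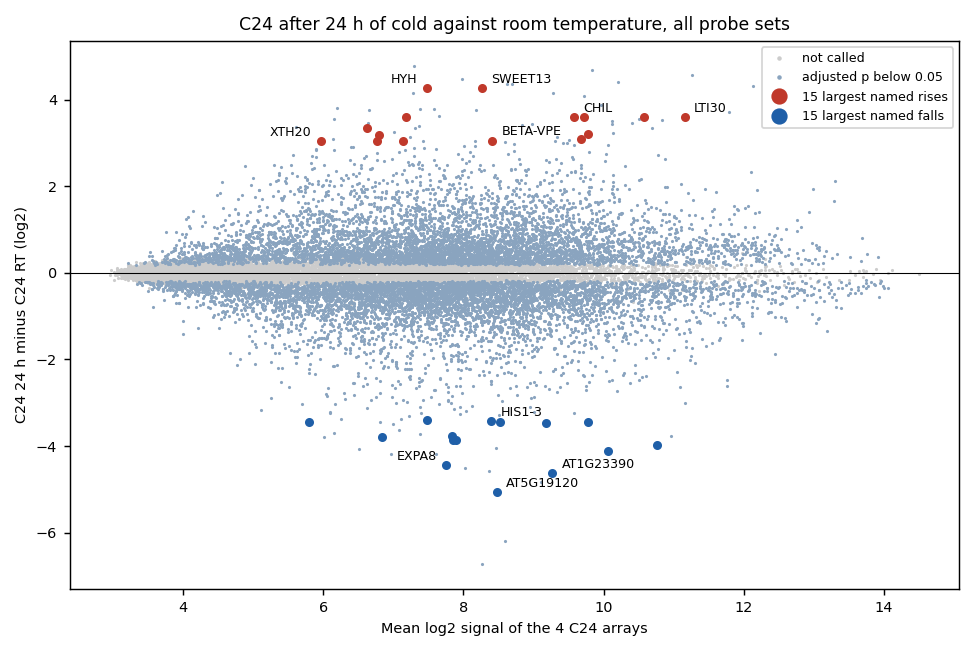
Change from room temperature to 24 h of cold in C24 (log2, vertical axis) against the mean log2 signal of the 4 arrays (horizontal axis), 1 point per probe set. The 15 largest named rises lie between 3.03 and 4.27 and the 15 largest named falls between -5.07 and -3.41, spread over low and high signals.

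The largest pair of named rises were a sugar exporter and a light-signalling factor. SWEET13 (AT5G50800), which exports sucrose from cells, read 6.26 and 6.0 at room temperature and 10.31 and 10.48 after 24 h. HYH (AT3G17609), a bZIP factor that acts beside HY5 in light signalling, read 5.58 and 5.11 at room temperature and 9.60 and 9.62 after 24 h. Both cold arrays of each gene lay far above the room temperature ones, and absence of overlap was a condition for naming the leading genes. SWEET13 rose 19.2-fold, by 4.27 (SE 0.115, limma adjusted p = 2.01e-10), and HYH rose 19.2-fold, by 4.27 (SE 0.123, adjusted p = 3.38e-10). In Col at room temperature SWEET13 stood at 8.65 and 8.71 and HYH at 6.95 and 6.97, so the C24 cold arrays were higher than those too, by 1.71 and 2.65.

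Other leading rises with a gene symbol included CHIL (AT5G05270), a chalcone isomerase-like protein that raises the yield of flavonoid synthesis, from 7.74 and 7.82 to 11.37 and 11.39, and LTI30 (AT3G50970), a dehydrin, from 9.51 and 9.23 to 12.93 and 12.98. CHIL rose 12.1-fold, by 3.597 (SE 0.082, adjusted p = 8.16e-11) and LTI30 rose by 3.59 (SE 0.093, adjusted p = 1.66e-10). BETA-VPE (AT1G62710), a vacuolar processing enzyme known for maturing seed storage proteins, went from 6.83 and 6.95 to 9.95 and 9.93, a rise of 3.05. XTH20 (AT5G48070), an enzyme that cuts and rejoins cell wall xyloglucan, left the background range, from 4.47 and 4.42 to 7.41 and 7.57, at least 7.88-fold. The other 9 of the 15 largest named rises carry a locus code only. AT1G80130, AT3G55580 and AT5G62210 rose by 3.602, 3.59 and 3.59, AT2G16890 by 3.34, AT1G06000 by 3.21 and AT1G22440 by 3.174. AT1G19450, AT3G15650 and AT3G22620 rose by 3.08, 3.04 and 3.03. Not all of these rises go beyond Col at room temperature. AT1G22440 reached 8.37 and 8.39 in cold C24 but stood at 9.85 and 9.86 in Col at room temperature, and AT3G22620 reached 8.62 and 8.68 against 9.73 and 9.63. For 14 of the 15 rises the C24 room temperature mean lay below that of Col, and 12 of the 15 were called above Col at room temperature.

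Falls reached further than rises. AT5G19120 read 10.96 and 11.06 at room temperature and 5.84 and 6.04 in the cold, a 33.5-fold fall (a log2 change of -5.07, SE 0.089, adjusted p = 2.23e-11). AT1G23390 went from 11.67 and 11.50 to 6.99 and 6.92. The expansin EXPA8 (AT2G40610), which loosens walls of growing cells, read 10.01 and 9.95 at room temperature and 5.69 and 5.37 after 24 h. It fell 21.8-fold (a log2 change of -4.45, SE 0.199, adjusted p = 8.02e-09), and its level in Col at room temperature, 10.11 and 10.21, was as high as that of C24. HIS1-3 (AT2G18050), a linker histone known from drought, went from 10.24 and 9.99 to 6.74 and 6.63, a fall of 10.8-fold. Its Col room temperature arrays, at 6.89 and 6.84, lay close to the cold C24 level. The 11 other leading falls, all locus codes, ran from -3.41 for AT1G52000 to -4.11 for AT3G28270. Among the 15, 12 had a C24 room temperature mean above that of Col, and 13 were called below Col at room temperature after 24 h.

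**Figure D2:**
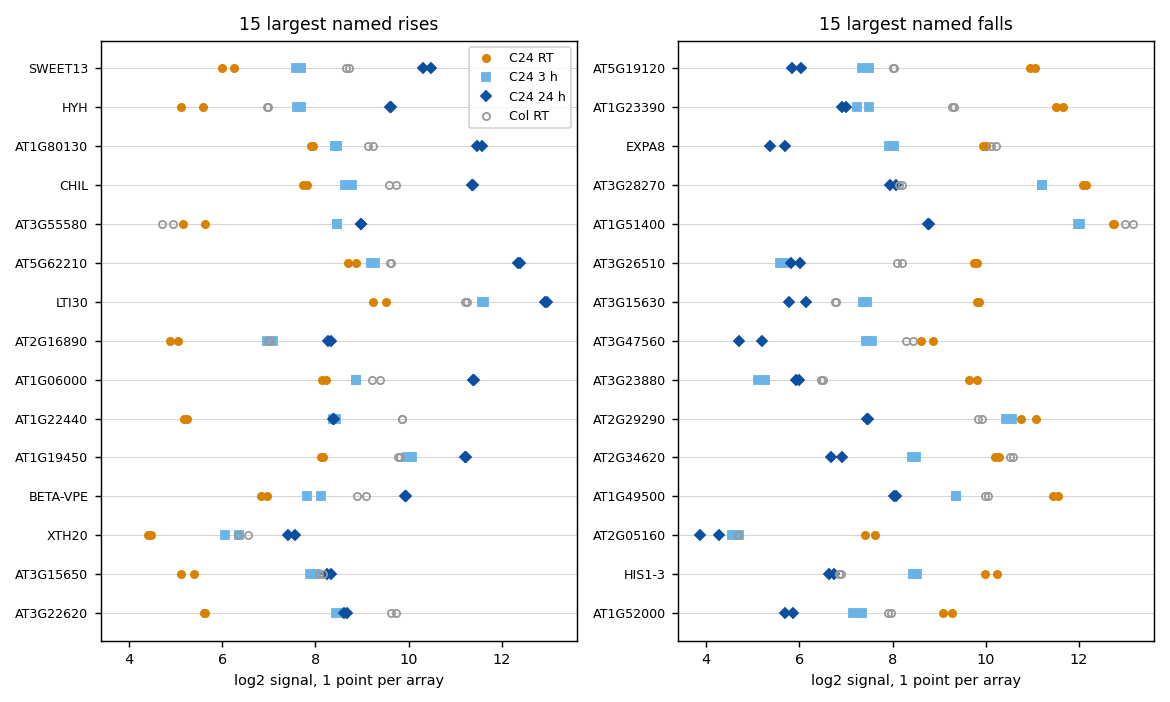
log2 signals of the 15 largest named rises and falls, 1 point per array, for 3 C24 groups (room temperature, 3 h and 24 h) and Col at room temperature. Orange room temperature points and dark blue 24 h points do not overlap, as the choice of genes required, and the open grey Col points often lie between them.

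Genes of the classical cold-protection proteins mostly rose, and the COR genes among them started high. Of 6 measured COR and LEA genes, 5 rose and none fell (median 1.58; 24.1% of all probe sets rose). COR15A (AT2G42540), a chloroplast protein that stabilises membranes on freezing, read 12.51 and 12.40 at room temperature and 14.17 and 14.07 after 24 h. It rose by 1.67 (SE 0.076, adjusted p = 8.97e-09), with the cold arrays all above. Its sister COR15B (AT2G42530) rose by 1.41 to 13.63 and 13.64, and the dehydrin COR47 (AT1G20440) by 1.49 to 12.76 and 12.78. LEA4-5 (AT5G06760), a desiccation protein, went from 5.20 and 5.27 to 7.26 and 7.27, a rise of 2.03. The exception was COR27 (AT5G42900), a cold-induced repressor tied to the clock. COR27 read 10.93 and 10.93 at room temperature, 10.90 and 10.88 after 3 h and 10.74 and 10.72 after 24 h, whereas Col at room temperature read 3.70 and 3.96, in the background range. Its C24 arrays were thus all high, and its change of -0.20 was not called (SE 0.087, adjusted p = 0.0795). Against Col at room temperature all 6 COR and LEA genes were called higher in cold C24, with a median of 2.17. In a family of 9 LEA proteins and dehydrins taken by symbol, which includes LTI30, 7 rose and 2 fell after 24 h (median 1.07). At 3 h, 8 of the 9 had been called higher and none lower (median 1.34). The 6 COR and LEA genes had 3 higher and 1 lower then (median 0.74). Of all 22746 probe sets, 5120 were higher at 3 h and 5270 lower. From 3 h to 24 h the family had 3 higher and 4 lower (median -0.10), and the 6 genes 4 higher and none lower (median 0.92). The shares of all probe sets were 21.7% and 22.5%. Against Col at room temperature 6 of the 9 were higher and 2 lower in cold C24.

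Regulators from the same pathway were few on the named part of the array. STZ (AT1G27730), a zinc finger repressor of the early cold response, read 9.35 and 9.32 at room temperature, 9.98 and 10.18 after 3 h and 8.15 and 8.25 after 24 h. It was lower after 24 h than in either other C24 group, having fallen by 1.14 from room temperature (SE 0.091, adjusted p = 8.97e-07). Col at room temperature was lower still, at 6.96 and 6.90. The clock gene GI (AT1G22770), which is normally expressed toward evening, rose by 1.01, from 9.60 and 9.57 to 10.55 and 10.64. TIL (AT5G58070), a temperature-induced lipocalin, rose by 1.48, whereas the chloroplast lipocalin CHL (AT3G47860) fell by 0.49 from C24 at room temperature and stood 1.86 above Col at room temperature. All 3 measured cold RNA-binding proteins and helicases rose, AtRZ-1c (AT5G04280) by 1.05, the chloroplast helicase RH39 (AT4G09730) by 0.83 and AtRZ-1b (AT1G60650) by 0.54.

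Sugar handling moved strongly at a few steps. Of 11 measured sugar transporters, 7 rose and 1 fell (median 0.44), against 24.1% and 25.4% of all probe sets. Besides SWEET13, the glucose carrier SWEET1 (AT1G21460) rose by 1.82, from 8.18 and 8.09 to 9.93 and 9.97, SAG29 (AT5G13170), a SWEET of senescing leaves, by 1.90, and the vacuolar SWEET2 (AT3G14770) by 1.504. TMT2 (AT4G35300), which loads sugar into the vacuole, rose by 0.79. SWEET17 (AT4G15920), the vacuolar fructose carrier, fell by 0.92, and TMT1 (AT1G20840) was not called (-0.09). At 3 h, 10 of the 11 transporters had been called higher and 1 lower (median 0.69). Of all 22746 probe sets, 5120 were called higher at 3 h and 5270 lower. From 3 h to 24 h, 4 of the transporters were called higher and 5 lower, against 21.7% and 22.5% of all probe sets. Starch and sucrose enzymes split. APL3 (AT4G39210), a large subunit of the enzyme that commits glucose to starch and a known sugar-induced gene, read 5.86 and 5.51 at room temperature, 5.84 and 6.29 after 3 h and 8.48 and 8.47 after 24 h. Its 24 h arrays stood above every other C24 array, a 6.93-fold rise over room temperature (by 2.79, SE 0.146, adjusted p = 2.68e-08). The sucrose-phosphate synthase ATSPS4F (AT4G10120) rose by 0.76, and DPE1 (AT5G64860), which breaks down short chains from starch, fell by 1.06 but stood 0.83 above Col at room temperature.

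Every measured flavonoid enzyme rose, where 24.1% of all probe sets did. The 7 enzymes had a median change of 2.32, and all 7 were higher at 24 h than at 3 h, a comparison that uses the same 24 h arrays (21.7% of all probe sets were higher there). CHIL, above, led. The sugar-adding enzymes of the UGT78D branch, which glycosylate flavonols and anthocyanins, followed. UGT78D2 (AT5G17050), the flavonoid 3-glucosyltransferase, read 8.44 and 8.44 at room temperature, 9.60 and 9.66 after 3 h and 10.79 and 10.73 after 24 h. It rose 4.99-fold (by 2.32, SE 0.072, adjusted p = 5.4e-10). UGT78D1 (AT1G30530), the flavonol rhamnosyltransferase, was not called changed at 3 h (-0.10, adjusted p = 0.344) and went from 5.76 and 5.57 to 8.28 and 8.33 by 24 h. UGT78D3 (AT5G17030), an arabinosyltransferase, left the background range, from 4.50 and 4.47 to 7.13 and 7.52, at least 7.05-fold. Anthocyanin steps rose less. DFR (AT5G42800), the reductase that commits the pathway to anthocyanin, read 7.54 and 7.57 at room temperature and 8.72 and 8.72 in the cold, a rise of 1.16 (SE 0.090, adjusted p = 6.61e-07). AT5MAT (AT3G29590), a malonyltransferase of anthocyanins, rose by 1.43 and UF3GT (AT5G54060), a xylosyltransferase, by 0.99. DFR was nevertheless higher in Col at room temperature, at 10.58 and 10.48, than in cold C24. Measured from the Col room temperature arrays, the list no longer moved one way: 3 of the 7 were called higher and 3 lower, with a median of -0.10. UGT78D1, UF3GT and AT5MAT were -0.64, -0.94 and -0.10 from that level, the last not called.

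**Figure D3:**
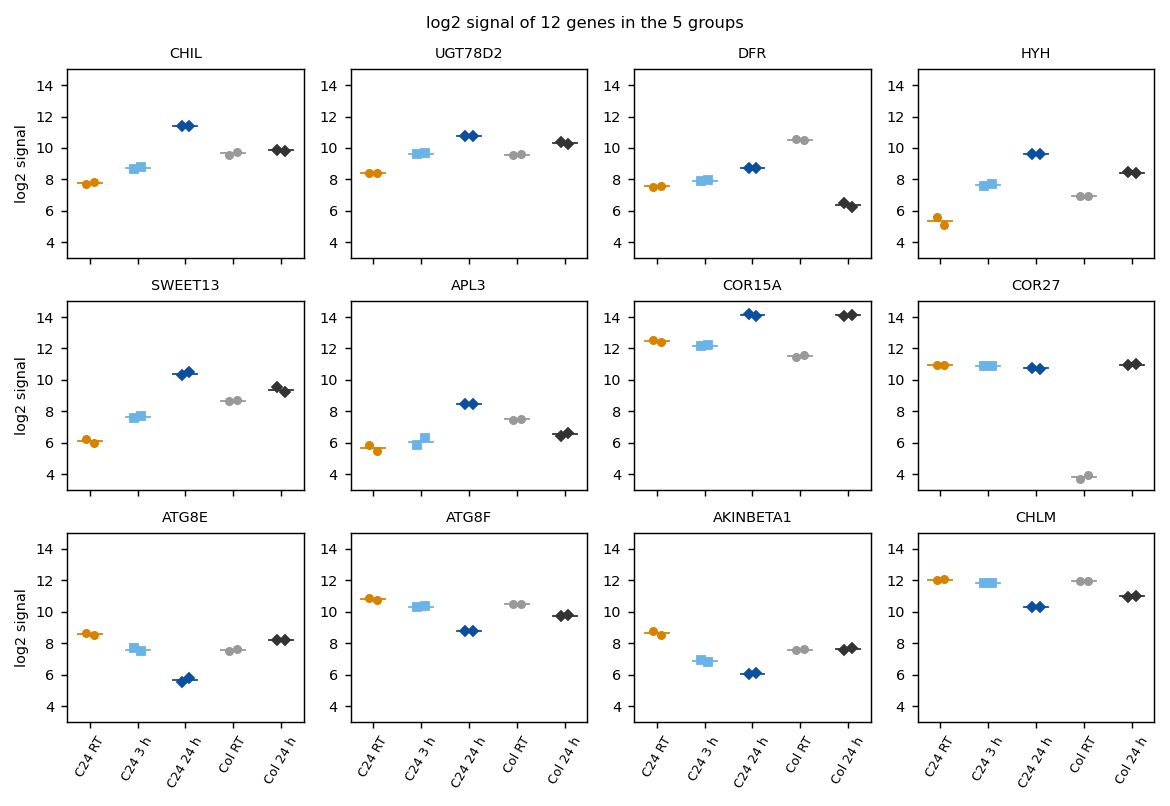
log2 signals of 12 genes in the 5 groups, 1 point per array with a bar at the group mean. CHIL, HYH, SWEET13 and APL3 climb from C24 room temperature to 24 h, DFR is highest in Col at room temperature, COR27 is low only in Col at room temperature, and ATG8E, ATG8F, AKINBETA1 and CHLM are lowest in C24 after 24 h.

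Genes for making ribosomes rose. Of 7 measured, 6 rose and 1 fell (median 1.43), where 24.1% of all probe sets rose and 25.4% fell. NRPA1 (AT3G57660), the largest subunit of the polymerase that transcribes ribosomal RNA, read 6.68 and 6.50 at room temperature, 6.73 and 6.75 after 3 h and 8.55 and 8.51 after 24 h. The 24 h arrays lay above the rest, with a rise of 1.94 (SE 0.089, adjusted p = 9.43e-09), and the second subunit NRPA2 (AT1G29940) rose by 1.43. YAO (AT4G05410), a nucleolar protein of rRNA processing, rose by 1.97, from 7.33 and 7.31 to 9.30 and 9.29. The nucleolar helicase PRH75 (AT5G62190) rose by 0.76, and of polymerase III, NRPC2 (AT5G45140) rose by 0.92 while NRPC1 (AT5G60040) fell by 0.30. The NRPC1 call was lost without C24 room temperature replicate 2 (-0.20) and without either C24 24 h replicate (-0.36 and -0.25). Against Col at room temperature the counts were again 6 higher and 1 lower. Over all 12 measured RNA polymerase subunits, 7 rose and 3 fell, and only 1 of the falls was called when replicate 2 of either group was left out.

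Protein-folding helpers mostly rose. Of 13 chaperones and co-chaperones, 9 rose and 3 fell (median 0.94), where 24.1% of all probe sets rose and 25.4% fell. Hsp70-2 read 7.86 and 7.61 at room temperature, 7.64 and 7.73 after 3 h and 9.50 and 9.52 after 24 h, so its rise of 1.78 came after 3 h. SQN (AT2G15790), a cyclophilin that works with HSP90, rose by 1.84, BOB1 (AT5G53400), a small chaperone, by 1.66, and the HSP70-HSP90 organisers Hop2 (AT1G62740) by 1.46 and Hop1 (AT1G12270) by 0.78. The Fes1 proteins, which release substrates from HSP70, went opposite ways. Fes1B (AT3G53800) dropped from 9.58 and 9.68 to 6.57 and 6.30, a 9.18-fold fall (a log2 change of -3.198, SE 0.095, adjusted p = 4.15e-10), Fes1C (AT5G02150) fell by 1.07 and Fes1A (AT3G09350) rose by 0.94.

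Genes for succinate dehydrogenase, cytochrome c and the alternative NADH dehydrogenases, which are mitochondrial electron carriers, rose without exception among those called. Of 11 such genes measured, 9 rose and none fell (median 0.67), where 24.1% of all probe sets rose and 25.4% fell. NDB2 (AT4G05020), an alternative dehydrogenase that oxidises cytosolic NADH without pumping protons, read 6.27 and 6.17 at room temperature and 8.69 and 8.53 after 24 h. It rose 5.24-fold (by 2.39, SE 0.092, adjusted p = 2.51e-09), clear of its room temperature arrays. The flavoprotein subunit SDH1-1 (AT5G66760) rose by 1.67, the iron-sulphur subunit SDH2-1 (AT3G27380) by 1.02 and the cytochrome CYTC-2 (AT4G10040) by 1.65. From the Col room temperature level the group moved less, with 6 higher, 2 lower and a median of 0.18. Of 5 antioxidant enzymes, 4 rose and 1 fell: the glutathione reductase GR1 (AT3G24170) by 1.66 and the stromal ascorbate peroxidase SAPX (AT4G08390) by 1.38, against -0.87 for the thylakoid peroxidase TAPX (AT1G77490).

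Photosynthesis genes of the nucleus fell, mostly by small amounts. All 7 measured photosystem and antenna genes fell (median -0.50; 25.4% of all probe sets fell). The antenna protein LHCB4.2 (AT3G08940) read 12.44 and 12.50 at room temperature, 12.40 and 12.38 after 3 h and 11.43 and 11.36 after 24 h. It was not called changed at 3 h (-0.08, adjusted p = 0.382) and had fallen by 1.07 at 24 h (SE 0.072, adjusted p = 1.94e-07), while its close relative LHCB4.1 (AT5G01530) fell by only 0.28. Of 5 genes of electron transport and carbon fixation, all fell, from PGRL1B (AT4G11960), which serves cyclic electron flow, by 1.67, to RCA by 0.19 and SBPASE by 0.18. RCA and SBPASE lost their call without any 1 of the 4 arrays compared, at -0.15 to -0.23 and -0.16 to -0.21, and SBPASE stood 0.17 above Col at room temperature.

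Most chlorophyll enzymes fell. Of 9 measured, 7 fell and none rose (median -0.54), where 25.4% of all probe sets fell and 24.1% rose. CHLM (AT4G25080), which methylates magnesium-protoporphyrin, read 12.01 and 12.07 at room temperature, 11.85 and 11.85 after 3 h and 10.33 and 10.32 after 24 h. Nearly all of its 3.29-fold fall (a log2 change of -1.72, SE 0.067, adjusted p = 2.7e-09) lay between 3 h and 24 h. HEME1 (AT3G14930), a uroporphyrinogen decarboxylase, fell by 1.57, its paralogue HEME2 (AT2G40490) by 0.97, and the light-dependent reductase PORB (AT4G27440) by 1.00. Assembly factors behaved alike: of 10 nuclear genes of the NDH complex and of photosystem assembly, 9 fell and none rose (median -1.06). Of these 10, 8 were already called lower at 3 h (median -0.64). By 24 h the leading members had moved further. PAM68 (AT4G19100) and LPA2 (AT5G51545), which help build photosystem II, fell by 1.51 and 1.48, and the NDH subunits NdhS (AT4G23890) by 1.18 and NdhL (AT1G70760) by 1.11. The C24 room temperature level of this last group was high: from Col at room temperature 4 were called higher and 4 lower, with a median of -0.01, whereas for chlorophyll enzymes 6 of 9 were still lower and none higher.

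Genes of the plastid genome scattered more. Of 69 measured, 22 fell, 2 rose and 45 were not called (median -0.41). The falls made up 31.9% of the group, against 25.4% of all probe sets. The photosystem II genes psbE and psbF fell by 1.15 and 1.02, and the ribosomal genes rpl33 and rps18 by 1.17 and 1.14. In contrast, rps16 rose by 2.21 (SE 0.380), although its room temperature arrays disagreed, at 6.15 and 7.43. Against Col at room temperature 13 were higher and 8 lower (median -0.09), where 31.2% and 26.9% of all probe sets were. Both rpl33 and rps18 were among the higher, by 0.45 and 0.75. The arrays bear unequally on this group: 35 fell without C24 room temperature replicate 1, 17 without replicate 2, 28 without C24 24 h replicate 1 and 16 without replicate 2. The medians were -0.74, -0.06, -0.70 and -0.17 in the same order.

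Recycling pathways fell together. Of 10 measured autophagy genes, 8 fell and none rose (median -0.71; 25.4% of all probe sets fell). All 10 were lower at 24 h than at 3 h (22.5% of all probe sets were lower there), with the 24 h arrays shared by both comparisons. ATG8 proteins are the ubiquitin-like tags that sit on the autophagosome membrane. ATG8E (AT2G45170) read 8.68 and 8.54 at room temperature, 7.71 and 7.49 after 3 h and 5.55 and 5.80 after 24 h. The groups form a descending series without overlap, with a 7.64-fold fall in all (a log2 change of -2.93, SE 0.103, adjusted p = 1.28e-09). ATG8F (AT4G16520) fell by 2.06, ATG8C (AT1G62040) by 1.78, ATG8D (AT2G05630) by 0.92, and the conjugating enzyme ATG3 (AT5G61500) by 0.47, while ATG8B (AT4G04620, -0.05) and APG8A (AT4G21980, 0.02) were not called. Against Col at room temperature 7 were lower and 1, ATG8D, higher, by 0.37, and APG8A was among the lower ones (-0.92).

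Breakdown of branched-chain amino acids and lysine fell in 9 of 10 measured genes (median -0.97), where 25.4% of all probe sets fell. MCCA (AT1G03090), the biotin subunit of methylcrotonyl-CoA carboxylase in leucine breakdown, read 7.57 and 7.43 at room temperature and 5.63 and 5.70 after 24 h. It fell 3.58-fold (a log2 change of -1.84, SE 0.074, adjusted p = 3.41e-09), and its partner MCCB (AT4G34030) fell by 1.31. IVD (AT3G45300), which acts earlier on leucine, fell by 0.82, and the mitochondrial oxidoreductase ETFQO (AT2G43400), which passes the released electrons on, by 1.14. The exception was MGL (AT1G64660), a methionine lyase feeding isoleucine synthesis, which rose by 1.79. Of 3 genes of energy shortage 1 rose and 2 fell. AKINBETA1 (AT5G21170), a subunit of the energy-sensing SnRK1 kinase, went from 8.81 and 8.55 to 6.04 and 6.09, a change of -2.61, and BZIP53 (AT3G62420), a factor acting downstream of that kinase, fell by 0.80, while the pyruvate enzyme PPDK (AT4G15530) rose by 1.53. All 9 falls of the breakdown list were also called against Col at room temperature.

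**Figure D4:**
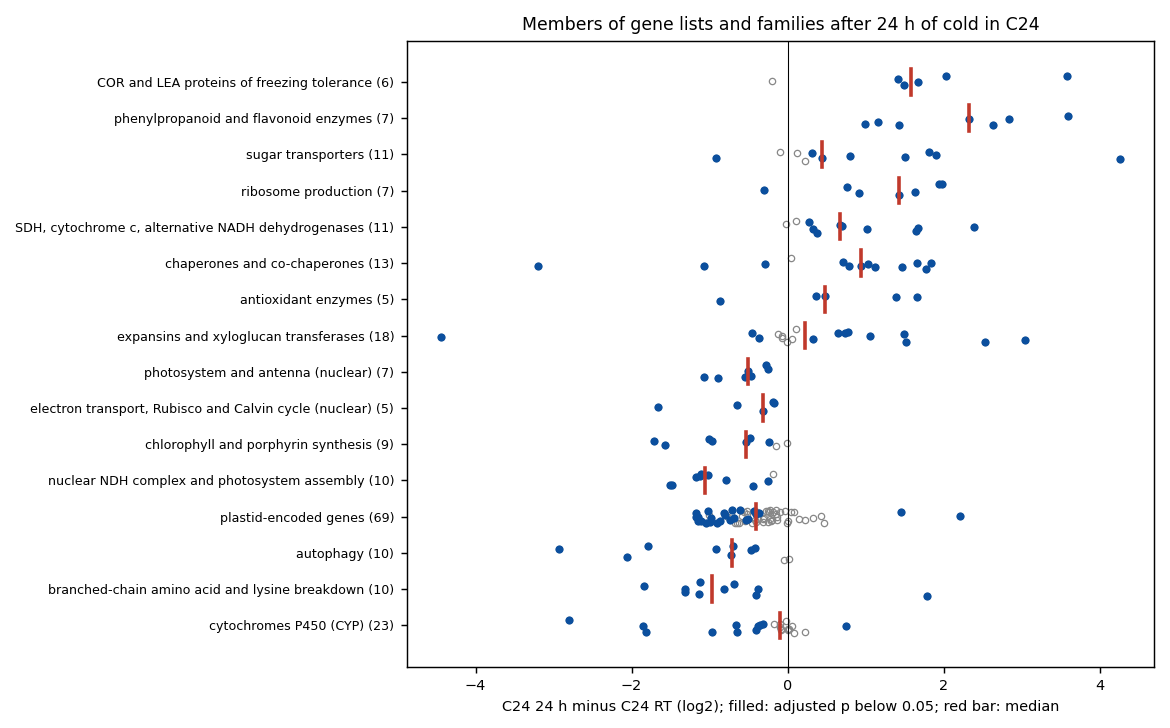
Change from room temperature to 24 h of cold in C24 (log2) for the measured members of 16 gene lists and families, with the number of members in brackets; filled points passed the test and red bars are medians. Flavonoid enzymes lie wholly to the right, photosystem genes wholly to the left, and expansins and xyloglucan transferases on both sides.

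Cell wall loosening enzymes split widely. Of 18 expansins and xyloglucan transferases, 9 rose and 3 fell (median 0.22), where 24.1% of all probe sets rose and 25.4% fell. XTH20 rose as given above, and XTH19 (AT4G30290) went from 4.36 and 4.74 at room temperature through 9.75 and 9.60 at 3 h to 7.16 and 7.02 at 24 h. The XTH19 signal was thus highest at 3 h and still 2.54 above room temperature at 24 h (SE 0.112, adjusted p = 7.35e-09). The expansin-like EXLA1 (AT3G45970) had returned: it read 6.18 and 6.10 at room temperature, 9.70 and 9.74 at 3 h and 6.15 and 6.24 at 24 h, and its change of 0.06 was not called (adjusted p = 0.566). EXPA15 (AT2G03090) rose by 1.06, and EXPA8 fell as given above. From the Col room temperature level 5 were higher and 9 lower (median -0.23), with XTH19 at -1.60 and EXPA15 at -0.46. The root markers moved alongside, PYK10 by 0.98 and EXPA18 by 0.39 upward, with EXPA7 at 0.35 and not called, and all 3 of them were lower in cold C24 than in Col at room temperature, at -1.22, -1.64 and -1.40. The part of root tissue in these results was not tested, and in whole seedlings fewer cells of a type and less RNA per cell cannot be told apart. The 3 measured stomatal factors, MUTE, FMA and SPCH, fell by 0.43, 0.35 and 0.29. Against Col at room temperature, however, they stood at 0.22, 0.60 and -0.20, the first from a Col level in the background range. With those Col arrays set to their lower quartile, MUTE stood at -0.0099. Their calls were lost for MUTE without C24 room temperature replicate 2 (-0.38) or 24 h replicate 1 (-0.35), and for FMA and SPCH without room temperature replicate 1 (-0.26 and -0.19) or 24 h replicate 2 (-0.32 and -0.20).

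Hormone genes gave mixed results. JMT (AT1G19640), which makes methyl jasmonate, rose out of the background range from 3.78 and 3.53 to 6.16 and 6.07, at least 3.05-fold (adjusted p = 5.53e-09). ORA47 (AT1G74930), a factor that switches on jasmonate synthesis, fell from 7.83 and 7.53 to 4.67 and 4.63, and had reached 4.81 and 4.84 by 3 h. Its Col room temperature arrays, at 4.82 and 4.84, resembled the cold C24 ones. The defensin PDF1.2, a jasmonate and ethylene marker, rose by 0.97. Among auxin genes GH3.17 (AT1G28130) rose by 0.94 and WES1 (AT4G27260) fell by 0.79, both auxin-conjugating enzymes. The gibberellin receptors also split, with GID1A (AT3G05120) and GID1C (AT5G27320) at -0.55 and -0.68 and GID1B (AT3G63010) at 0.82. Against Col at room temperature GH3.17 was lower (-1.52), GID1A higher (0.63), and GID1C (0.01) and GID1B (0.05) were not called. Of 5 calcium and touch genes 3 fell and none rose, where 25.4% of all probe sets fell. CML38 (AT1G76650) fell into the background range, at least 1.58-fold. Against Col at room temperature 2 of the 5 were higher and 2 lower (median -0.19).

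Large enzyme families of defence and detoxification divided by member. Of 47 UDP-glycosyltransferases 17 rose and 11 fell against 24.1% and 25.4% of all probe sets. UGT74D1 (AT2G31750), which conjugates auxin, rose by 2.49, UGT73C1 (AT2G36750) by 2.31 and UGT76B1 (AT3G11340), from the background range, at least 4.11-fold, whereas UGT85A5 (AT1G22370) fell by 2.096. Of 23 cytochromes P450, 10 fell and 1 rose, led by CYP71B24 (AT3G26230), from 7.39 and 7.49 to 4.70 and 4.56, and CYP71B5 (AT3G53280), with -1.86. The glutathione transferase GSTU22 (AT1G78340) rose by 2.302 and GSTU18 (AT1G10360) fell by 2.04. UGT76B1 and GSTU22 nevertheless stayed below Col at room temperature, at -2.08 and -1.01. The lectins JAL23 (AT2G39330) and JAL22 (AT2G39310), which associate with the PYK10 glucosidase, fell by 2.32 and 0.88, and BCAT4 (AT3G19710) of methionine-derived glucosinolates by 0.71. In contrast NAI2 (AT3G15950), which forms the endoplasmic reticulum bodies holding PYK10, rose by 0.43, and was still -3.14 from Col at room temperature.

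To separate the late from the early response, the 24 h arrays were set directly against those taken at 3 h, a difference that the room temperature arrays enter only through the shared estimate of spread. By limma 4946 probe sets were higher at 24 h (21.7%) and 5127 lower (22.5%). With each array centred on its median the balance turned, to 6052 higher and 4494 lower. PDF1.2b (AT2G26020), a defensin on a probe set type that can cross-hybridise, read 6.29 and 6.15 at 3 h and 9.33 and 9.55 at 24 h, after 8.64 and 8.60 at room temperature. It had dropped by 3 h and was above its start at 24 h, a difference of 3.22 (adjusted p = 4.54e-09). SWEET13 (2.76), UGT78D3 (2.78), AT5G62210 (3.15), AT1G80130 (3.09) and AT2G23910 (2.76) complete the 6 largest named differences upward. EXLA1 had the opposite course, with a difference of -3.52 (adjusted p = 3.4e-10). AT1G17960 read 4.36 and 4.32 at room temperature, 7.71 and 7.66 at 3 h and 4.32 and 4.31 at 24 h, a transient that began and ended in the background range. AT1G62510 and AT1G52100 were likewise higher at 3 h than in both other C24 groups, with -3.66 and -3.34 from 3 h to 24 h. AT1G61500 (-3.69) and AT3G50270 (-3.43) instead fell late, their 3 h arrays lying above those at room temperature.

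The leading rises and falls over room temperature differed in when they moved. AT1G22440 read 8.44 and 8.37 at 3 h and 8.37 and 8.39 at 24 h, a difference that was not called, and AT3G22620, at 8.60 and 8.44 and 8.62 and 8.68, was not called between these times either. AT1G80130 and AT5G62210 instead gained most after 3 h, with 0.52 and 0.44 from room temperature to 3 h and 3.09 and 3.15 from there to 24 h. Among the falls AT3G23880 and AT3G26510 were lowest at 3 h and stood 0.77 and 0.28 higher at 24 h. AT2G29290 and AT1G51400 moved late, with -3.04 and -3.23 between 3 h and 24 h.

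The 24 h response of C24 was tested against that of Col as a difference of differences, in which each ecotype is measured from its own room temperature arrays. This difference was called for 4636 probe sets in the positive direction (20.4%) and 4345 in the negative (19.1%). Of the 1332 probe sets at least 2-fold higher in cold C24, 361 were also at least 2-fold higher in Col, which is 27.1% of the C24 list and 37.4% of the 965 in Col (4.24% of all probe sets). Of the 1164 falls, 255 were shared, 21.9% of the C24 list and 27.1% of the 941 in Col (4.14%). Opposite 2-fold changes were found for 66 probe sets higher in C24 and lower in Col and for 84 the other way round.

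All 7 flavonoid enzymes were called positive in this difference, against 20.4% of all probe sets. DFR went from 10.58 and 10.48 to 6.49 and 6.23 in Col, a fall, and rose in C24, a difference of 5.33 (SE 0.127, adjusted p = 2.41e-10). APL3 fell by 0.97 in Col and rose in C24, a difference of 3.76. TBL26 (AT4G01080), of a family that acetylates wall polysaccharides, read 6.79 and 6.80 and 9.51 and 9.45 in C24 and 8.50 and 8.71 and 6.33 and 6.21 in Col, the room temperature arrays first. The ecotypes thus moved apart, by 5.02. AT2G27420 (5.35, at least 5.05 as Col after 24 h was in the background range), AT1G22440 (4.14) and AT4G30170 (4.13) behaved likewise.

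On the negative side COR27 had -7.35. Its Col room temperature arrays were in the background range, so its rise in Col was at least 6.47 and the difference at least 6.67 in size, and it was high throughout in C24. AT5G62360, AT4G33980 and AT2G38465 had the same form, with C24 room temperature levels of 10.64 and 10.58, 9.82 and 9.90 and 8.23 and 8.15 against 5.83 and 6.08, 4.64 and 4.82 and 4.49 and 4.14 in Col, and differences of -5.89, -5.77 and -4.71, the last at least 4.52 in size as its Col room temperature arrays were in the background range. Their levels after 24 h of cold were much closer, for AT5G62360 10.58 and 10.63 in C24 and 11.87 and 11.82 in Col. AT3G15450 and AT3G15630 rose in Col by 3.73 and 1.74 and fell in C24 by 2.53 and 3.87. Of the 6 COR and LEA genes, 5 were called negative and 1, LTI30, positive, with -2.13 for COR15B and -1.35 for COR47. ATG8E fell in C24 and rose by 0.62 in Col, a difference of -3.55, and 8 of the 10 autophagy genes were called negative. Of all probe sets, 19.1% were called negative. Because the difference contains the C24 room temperature arrays, it carries their 2-fold departures from the other arrays too, and ecotype and those arrays cannot be told apart.

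**Figure D5:**
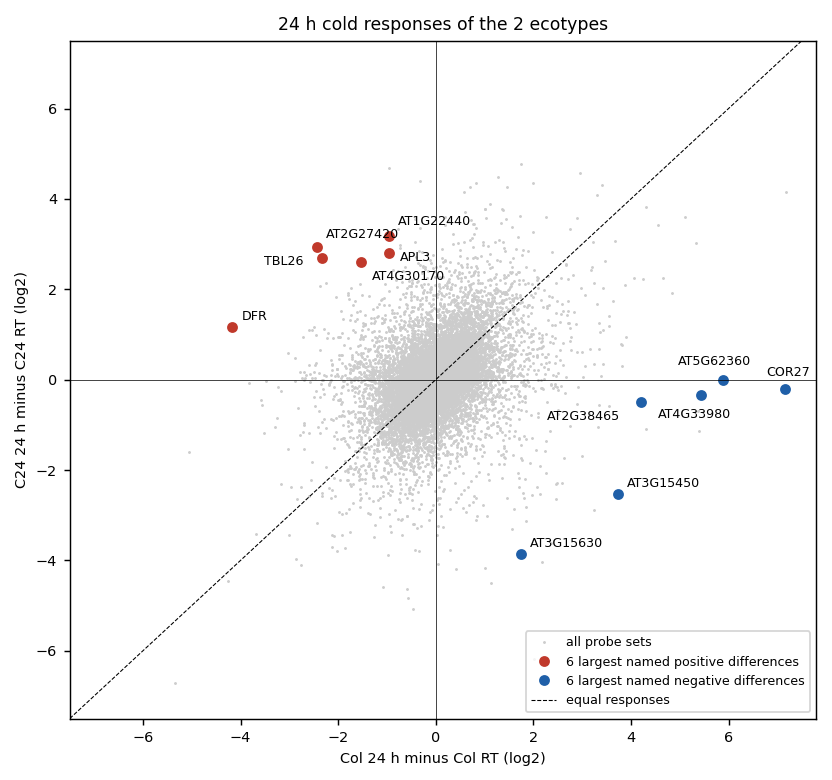
Change after 24 h of cold in C24 (log2, vertical axis) against that in Col (horizontal axis), 1 point per probe set, with the genes named for the largest differences of response in colour and a dashed line of equal responses. DFR and APL3 rise in C24 and fall in Col, while COR27, AT5G62360 and AT4G33980 rise in Col with little change in C24.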

How the data were processed

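Gene expression was measured on 1-colour Affymetrix arrays. The authors deposited log2 signals, for which the submitters' processing notes name GCOS and RMA. No source used here says whether all 10 arrays were normalised together. The 5 groups of 2 arrays were taken from the sample titles. A model of 5 group means was fitted by limma's lmFit and eBayes (limma version 3.58.1, R version 4.3.3) over the 10 arrays together, and p-values were adjusted by Benjamini-Hochberg over 22746 probe sets. The scripts were tested on simulated data. Probe sets were named from the platform annotation, where 503 held several genes and 8730 none, and 13436 of the 13513 with 1 gene matched a RefSeq locus.

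Text genes were the 15 largest rises and 15 largest falls whose arrays did not overlap between groups, the 6 largest each way in both other comparisons, and members of 32 lists, of which 27 had a measured member. Members of 15 families defined by symbol were named after their values were seen. The comparison, lists and families were chosen with earlier results of these data known. Alternatives were other normalisations, a replicate block, another prior, filters, thresholds and leaving out arrays. A planned search for promoter motifs was not run, as no promoter sequences were used here.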

Additional observations from a re-analysis of the deposited data

Results flagged for a closer look

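The responses of C24 and Col to 24 h of cold differed by the interaction test of limma at 8981 probe sets, adjusted by Benjamini-Hochberg. At 66 probe sets C24 rose and Col fell by at least 2-fold, and at 84 the reverse held. The largest negative differences of named genes, C24 minus Col on the log2 scale, were -7.35 for COR27, -6.26 for AT3G15450, -5.89 for AT5G62360, -5.77 for AT4G33980, -5.61 for AT3G15630 and -4.71 for AT2G38465. The Col room temperature arrays of COR27 and AT2G38465 were in the background range, so these differences are bounds, -6.67 and -4.52 or further from 0, and their places in this order are not settled. The zinc finger gene STZ differed by -3.48. The largest positive differences were 5.35 for AT2G27420, 5.33 for DFR, 5.02 for TBL26, 4.14 for AT1G22440, 4.13 for AT4G30170 and 3.76 for APL3. That of AT2G27420 is at least 5.05, since Col after 24 h was in the background range, so its order beside DFR is not settled. Among list and family members that moved at least 2-fold in opposite directions, the monolignol glucosyltransferase UGT72E2 differed by 3.07, the anthocyanin malonyltransferase AT5MAT by 2.88, the expansin EXPA15 by 2.72 and the defensin PDF2.5 by 2.59. PDF2.5 started in the background range in C24, so its difference is at least 2.17 and its rise in C24 at least 1.95-fold. Every one of these values contains the C24 room temperature arrays, the group with the most probe sets at least 2-fold beyond all other arrays.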

How the results depend on the processing

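With 2 arrays a group, the number of arrays limits every test, and small changes near the threshold are the ones that gain or lose a call. Against 11254 probe sets called in the main comparison, 10073 between 24 h and 3 h and 8981 in the difference of responses, the counts with another quantile normalisation, median centring, no dim probe sets, a robust prior with an intensity trend or only the compared arrays stayed within 1.5 times. Median centring moved the median change of all probe sets from -0.02 to 0.0049. The replicate block gave 11227, 10010 and 8924 calls; the replicate differences of the 2 main groups correlated at -0.092, so shared numbers were not shown to pair the arrays. Leaving out 1 array gave 9711 to 10147, 8360 to 8582 and 7796 to 8451 calls. Keeping 1 probe set per named gene gave 5977, 5290 and 4610, where fewer probe sets were tested, and requiring 2-fold gave 2496, 1641 and 2554. The following settings were added after seeing the data. The block with exchanged numbers gave 11270. Col room temperature arrays in place of the C24 ones gave 13209 calls, and 6714 probe sets were called in the same direction from both. Of 456 leading genes and members of lists and families, 106 turned direction there, against 0 in every other setting. A turn was counted only for a gene called in the main comparison or in the alternative, so changes of sign without a call are left out. Of those named in the text, the values from Col at room temperature became positive for COR27 (6.90, a Col level in the background range giving at least 6.22), CHL (1.86), STZ (1.27), DPE1 (0.83), rps18 (0.75), GID1A (0.63), FMA (0.60), rpl33 (0.45), ATG8D (0.37), MUTE (0.22), SBPASE (0.17) and GID1C (0.0090). They became negative for NAI2 (-3.14), PDF2.5 (-2.57), UGT76B1 (-2.08), DFR (-1.81), EXPA18 (-1.64), XTH19 (-1.60), GH3.17 (-1.52), AT1G22440 (-1.48), EXPA7 (-1.40), UGT72E2 (-1.35), PYK10 (-1.22), AT3G22620 (-1.03), GSTU22 (-1.01), UF3GT (-0.94), APG8A (-0.92), UGT78D1 (-0.64), EXPA15 (-0.46) and AT5MAT (-0.10). MUTE turned to 0.22 as measured, but to -0.0099 with its Col room temperature arrays, in the background range, set to their lower quartile. The cause of these turns was not tested.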

Other observations

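Single members of enzyme families outside the lists above changed after 24 h of cold in C24, as judged by limma's adjusted p below 0.05, which called 24.1% of all probe sets higher and 25.4% lower. The family shares below are near or under these, except for rises of deubiquitinating enzymes and TBL proteins. Of 20 beta-glucosidases, which release sugars from glycosides, 3 rose and 5 fell, with BGLU40 (AT1G26560) down by 1.54 and BGLU44 (AT3G18080) by 1.29. Of 29 serine carboxypeptidase-like proteins, 4 rose and 7 fell. The widest apart were scpl31 (AT1G11080), which fell by 2.34, and scpl46 (AT2G33530), which rose by 1.33. Of 12 deubiquitinating enzymes, which take ubiquitin off proteins, 5 rose and none fell, led by UBP23 (AT5G57990) at 1.31, but 2 rose without C24 24 h replicate 1 and 3 without C24 room temperature replicate 1. Among 22 TBL proteins, 7 rose and 3 fell, and TBL37 (AT2G34070) rose by 2.26. From Col at room temperature these genes lay in the same direction, BGLU40 at -2.81, BGLU44 at -0.60, scpl31 at -2.40, scpl46 at 1.12, UBP23 at 1.196 and TBL37 at 1.89, but the TBL counts turned to 4 higher and 10 lower.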
